A study of Mus musculus with 15 samples.

Results

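Hepatocellular carcinoma (HCC) of mice with a liver-specific deletion of Trp53, named p53LKO, was compared with HCC of p53f/f mice, which carry the floxed Trp53 allele and served as controls, across all transcripts measured on whole-genome arrays. The 10 arrays were those whose labels name them HCC, 5 of each genotype, out of 15 in the series, and the 5 arrays of p53LKO tumors labelled ICC were not compared here. The study made this comparison to look for changes in iron metabolism in liver cancer that lacks p53, and the account here covers gene families and pathways other than those of iron. All mice were on a C57/BL6J background and received CCl4, a liver toxin, intraperitoneally at 0.5 µl per g body weight in olive oil from 6 weeks of age over 16 weeks, 2 times a week according to the methods and every 3 days according to the labels. The controls thus had the same toxin and also had tumors. RNA came from whole tumor tissue, so that each value is a mixture of cancer cells and other cells, and fewer cells of a type and less RNA per cell cannot be told apart. The p53f/f tumors came from 4 mice, because mouse 3717 gave 2 of them, and the p53LKO tumors from 5 mice. The sources used here give neither the age nor the time of day at which each tumor was taken, nor the driver of the Cre recombinase, and the study describes tumors of p53f/f mice as arising later, so that genotype and age cannot be told apart. In the sentences with a value for each tumor, the order is mouse 3681, 3715, 3716 and both tumors of 3717 for p53f/f HCC and mouse 3976, 5283, 3731, 3733 and 3975 for p53LKO HCC.

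The protein p53, made from Trp53, is a transcription factor that is activated by DNA damage and other stress and that switches on genes which stop the cell cycle, repair DNA or lead to cell death. Adult hepatocytes rarely divide and devote much of their RNA to secreted plasma proteins and to enzymes for amino acids, lipids, bile acids and foreign compounds. Liver cancers vary in how much of this program they keep and in how strongly they express the machinery of growth and division.

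A level is given here as log2 signal relative to the 75th percentile of the same array, which is thus at zero, and ± after a log2 fold change gives its standard error. Probes were kept when the scanner software called them well above background on all 10 arrays, and 20166 of 55681 probes met this limit. They include 15049 probes with a gene symbol, which measure 11891 genes. Each gene is represented by its kept probe with the highest mean level. A probe was counted as changed at an adjusted p under 0.05 from limma and a fold change over 2. Of all kept probes 1848 (9.16%) passed, with 1002 (4.97%) higher and 846 (4.2%) lower in p53LKO than in p53f/f tumors. Of all kept genes 746 (6.27%) were higher and 368 (3.09%) lower. Without the limit on the fold change, 25.3% of genes had an adjusted p under 0.05, and the 5 tumors of 1 group all lay above those of the other for 16.4% of genes. The median log2 fold change was 0.24 over all genes, and the shift of each gene list below is therefore given relative to this median. Mean levels of a list in each tumor are not corrected for it.

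The split into higher and lower probes depended on the scaling and on the filter. When the 75th percentile was taken over the kept probes alone, 400 probes were higher and 1363 lower, with the median of the kept probes they numbered 586 and 1094, and with the spike-in probes, which put the median of all kept probes at 0.90, 8405 and 326. A limit of 3 arrays well above background in at least 1 group, in place of all 10, gave 1312 higher and 5763 lower probes. The arrays of p53f/f HCC had 55.1% to 70.1% of probes well above background, and those of p53LKO HCC 37.0% to 62.1%, the lowest being both arrays in a lower row of a slide, of mice 3976 and 5283. Within slide 1, which holds 4 p53f/f and 2 p53LKO tumors, 199 probes were higher and 519 lower, and within slide 2, with 1 and 3, only 1 probe passed. Of 224 genes followed one by one, most of which are named below, 187 passed the thresholds. All of these had the same sign within both slides, under every scaling and without each tumor in turn. This says little, because the genes were mostly chosen for the size of their change on these same arrays. Of the 187, 128 kept their call without each tumor in turn. With the 75th percentile of the kept probes 139 kept it, and with the spike-in probes 156.

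The array holds 1 probe for Trp53, which its design places on chromosome 17 of mm9 from 54560025 to 54560084, while RefSeq has the gene on chromosome 11. The probe was well above background on 5 p53f/f and 3 p53LKO arrays and was therefore not among the kept probes. Its level was -0.76, -1.27, -0.68, -1.07 and -1.27 in p53f/f HCC and -2.86, -3.86, -2.8, -3.2 and -2.75 in p53LKO HCC. All p53LKO tumors lay below all p53f/f tumors. Because of its position the probe is no direct check of the deleted part of the gene.

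The largest rises without overlap between the groups were in genes of several unrelated functions. Lamc3, a laminin chain of basement membranes, was highest in the list, with levels of -4.03, -2.11, -1.67, -2.41 and -1.2 in p53f/f HCC and 4.04, -0.65, 3.09, 4.14 and 4.3 in p53LKO HCC. For Lamc3 the log2 fold change was 5.27 ± 0.88 with an adjusted p of 0.0018. Its lowest p53LKO tumor, that of mouse 5283, lay only little above the highest p53f/f tumor, while the other p53LKO tumors were far higher. Sult2a1, a sulfotransferase for bile acids and steroids, had levels of -2.38, 0.77, -2.4, -1.91 and -1.61 in p53f/f HCC and 3.26, 4.22, 4.5, 5.33 and 1.24 in p53LKO HCC. Sult2a1 had a log2 fold change of 5.21 ± 0.77 with an adjusted p of 0.000829. Gsn, the actin-severing protein gelsolin, was measured at 1.08, 4.8, 1.8, 1.03 and 2.7 in p53f/f HCC and 8.15, 6.33, 7.19, 6.79 and 5.78 in p53LKO HCC, and its other kept probe was called too. Gsn had a log2 fold change of 4.57 ± 0.68 with an adjusted p of 0.00086. Parm1 (log2 fold change 3.93), Atp6v0e2 (3.88), a subunit of the proton pump of lysosomes, and Nol3 (3.52), an inhibitor of cell death, followed.

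Timp1, the secreted inhibitor of matrix metalloproteinases, is a well-known product of activated stellate cells and of inflamed tissue. Its level was -1.04, -0.03, 0.2, -1.26 and 0.78 in p53f/f HCC and 2.51, 2.43, 4.09, 3.18 and 3.93 in p53LKO HCC. Timp1 gave a log2 fold change of 3.5 ± 0.44 with an adjusted p of 0.000309. No p53LKO tumor came near the p53f/f tumors for this gene. Il3ra, the alpha chain of the interleukin-3 receptor, was at -0.95 to 1.23 in p53f/f HCC and 2.38 to 3.83 in p53LKO HCC (log2 fold change 3.4 ± 0.43, adjusted p = 0.00029). Slamf9, a surface receptor of the SLAM family, was at 1.37 to 2.45 in p53f/f HCC and 3.5 to 6.53 in p53LKO HCC (log2 fold change 3.11 ± 0.47, adjusted p = 0.000948). Both thus separated the groups by more than 1 log2 unit at the closest tumors. Plat, tissue plasminogen activator (log2 fold change 3.02), Rcan2, a regulator of calcineurin (3.27), Fads3, a fatty acid desaturase family member (2.89), Tmem54 (2.79), Glis2, a zinc finger transcription factor (2.75), and 1700016C15Rik (3.16) completed the 15 largest rises, but for Rcan2, 1700016C15Rik and Plat the closest tumors of both groups lay within 0.2 log2 units.

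The largest falls had a different make-up. 5430431A17Rik, a long noncoding RNA, had levels of 4.74, 5.58, 4.35, 5.45 and 5.68 in p53f/f HCC and 0.12, -0.6, -0.23, 2.47 and 0.54 in p53LKO HCC. For 5430431A17Rik the log2 fold change was -4.7 ± 0.51 with an adjusted p of 0.000122. Tssk5, a kinase known from testis, was at 3.7, 4.81, 3.44, 4.74 and 4.79 in p53f/f HCC and -0.73, -0.82, -0.93, 1.43 and -0.31 in p53LKO HCC. Tssk5 had a log2 fold change of -4.57 ± 0.46 with an adjusted p of 9.07e-05. Zap70, the kinase of the T cell receptor, was at 4.85, 2.07, 2.07, 3.07 and 2.71 in p53f/f HCC and -1.2, -1.3, -0.01, -1.71 and -1.18 in p53LKO HCC. Zap70 gave a log2 fold change of -4.03 ± 0.50 with an adjusted p of 0.000266. In all 3 the p53LKO tumors lay far below, and in the first 2 the tumor of mouse 3733 was the highest of its group. Several of the 15 are genes usually tied to other tissues, Klra1, a receptor of natural killer cells (log2 fold change -3.53), Cd300lf, a receptor of myeloid cells (-3.49), Scn3b, a sodium channel subunit (-3.48), Ddx25, a helicase known from testis (-3.22), Shc4, an adaptor protein (-3.1), and Tdgf1, an embryonic growth factor (-3.01). For Cd300lf both other kept probes had positive values, 0.54 and 0.48, and did not pass. The remainder are genes with known roles in liver, namely Nr1d1 (-3.38) and Dbp (-3.06) of the clock, Pck1 (-3.03) of gluconeogenesis, the succinate receptor Sucnr1 (-3.08), Mup21 (-3.0) and Apoa5 (-2.97), most of which are taken up again below.

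**Figure D1:**
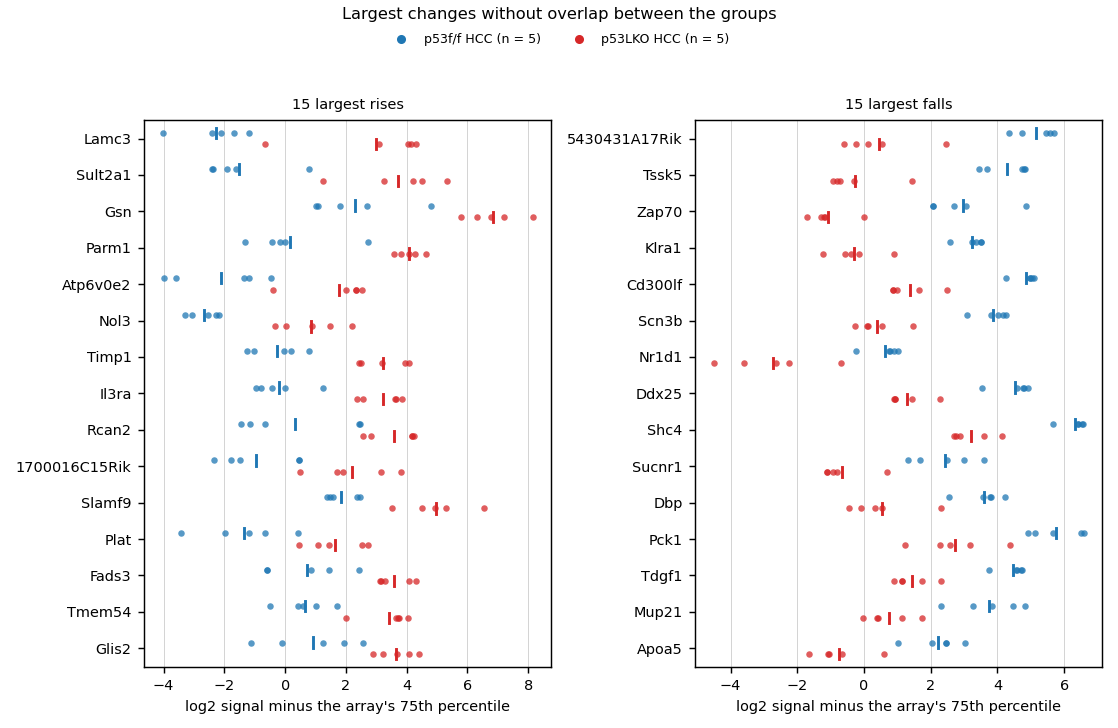
Level of 30 genes without overlap between the groups, the 15 that rose most and the 15 that fell most, in log2 signal relative to the 75th percentile of the array. Each point is a tumor, 5 per group, and the bar is the group mean. In Lamc3 the p53LKO tumor of mouse 5283 sits at -0.65, next to the p53f/f tumors, and in Tssk5 that of mouse 3733 sits at 1.43, above the other p53LKO tumors.

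Rises and falls differed in how far several probes of a gene gave the same answer. Among the genes called higher, 142 had other kept probes, and for 128 of them every other probe also had a positive value. A second probe was itself called higher for 82 of the 142 (57.7%), and the other probes had a median log2 fold change of 1.06. Among the genes called lower, 71 had other kept probes, all of them negative for 38, a second probe was called lower for 18 (25.4%), and their median was -0.12. The probes called lower had a smaller spread among p53f/f tumors, with a median SD of 0.31, than the probes called higher, with 0.51, and 86.4% of them had groups without overlap against 60.6%. Among the 15 largest falls the tumor of mouse 3716 was the lowest of its group in 12, and that of mouse 3733 the highest of its group in 8. The cause of this difference was not tested. Single genes for which the other probe went another way are named with that value below.

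Many genes that copy DNA rose. Of 41 kept genes of DNA replication, out of 46 listed, 11 (26.8%) were higher and 1 lower, 21 had an adjusted p under 0.05 with a positive value, and the median lay 0.54 above that of all genes. The mean level over the list was 0.21 to 1.19 in p53f/f HCC and 1.36 to 1.8 in p53LKO HCC. The groups thus did not overlap, by a margin smaller than the median rise of 0.24 over all genes. The minichromosome maintenance proteins Mcm2 to Mcm7 form the ring that unwinds DNA at the replication fork. Mcm6 had the largest rise, with levels of 3.3, 3.53, 3.65, 1.67 and 2.84 in p53f/f HCC and 5.45, 4.73, 5.1, 5.1 and 4.51 in p53LKO HCC, and all p53LKO tumors were above all p53f/f tumors. Mcm6 gave a log2 fold change of 1.98 ± 0.35 with an adjusted p of 0.00242. Mcm5 was at 0.55, -0.15, -0.13, -1.39 and 0.09 in p53f/f HCC and 0.67, 1.31, 1.44, 1.36 and 0.99 in p53LKO HCC. For Mcm5 the log2 fold change was 1.36 ± 0.31 with an adjusted p of 0.00972. Its closest tumors of both groups, of mice 3681 and 3976, differed by little. Mcm2 (log2 fold change 1.53 ± 0.30, adjusted p = 0.00476), Mcm3 (log2 fold change 1.21 ± 0.28, adjusted p = 0.0103) and Mcm4 (log2 fold change 1.2 ± 0.31, adjusted p = 0.0161) also rose, with groups that touched by less than 0.1 log2 units for the first 2 of these, and Mcm7 stayed just under the fold change of 2 (log2 fold change 0.93 ± 0.24, adjusted p = 0.0154). In each of these 6 genes the first tumor of mouse 3717 was the lowest of all 10 tumors, and the second tumor of that mouse was higher. The call of Mcm3 was lost without the first tumor of mouse 3717 and that of Mcm4 without the tumor of mouse 5283.

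Promoters of replication genes are known targets of E2F transcription factors, and the upstream sequence of the Mcm genes is shown because these genes moved together. The table of RefSeq promoters used here, in build GRCm38.p6, lists 5 of the 6 genes and not Mcm4, and the 250 bases before the start were searched on both strands for the words TTTCCCGC, TTTGGCGC, TTTCGCGC and TTTGCCGC. At least 1 of these was found for 3 of the genes, and in 1.86% of all 32851 promoters of the table. Words may overlap, which gives a longer run. The sequences below run 5′ to 3′ on the strand of the gene, with each word in capitals, for Mcm5 on the plus strand (chr8:75109259-75109508), Mcm6 on the minus strand (chr1:128359706-128359955) and the first of 2 start sites of Mcm7 on the minus strand (chr5:138171884-138172133).
Mcm5: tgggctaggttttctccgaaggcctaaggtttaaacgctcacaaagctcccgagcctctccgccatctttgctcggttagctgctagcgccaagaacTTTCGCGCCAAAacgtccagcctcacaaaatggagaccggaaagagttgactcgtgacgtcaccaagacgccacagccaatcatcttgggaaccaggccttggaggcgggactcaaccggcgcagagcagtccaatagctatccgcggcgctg
Mcm6: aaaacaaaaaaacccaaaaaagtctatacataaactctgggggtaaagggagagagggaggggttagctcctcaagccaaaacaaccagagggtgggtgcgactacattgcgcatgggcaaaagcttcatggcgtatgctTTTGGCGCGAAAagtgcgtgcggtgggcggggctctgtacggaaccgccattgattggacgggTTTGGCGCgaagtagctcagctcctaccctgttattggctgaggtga
Mcm7: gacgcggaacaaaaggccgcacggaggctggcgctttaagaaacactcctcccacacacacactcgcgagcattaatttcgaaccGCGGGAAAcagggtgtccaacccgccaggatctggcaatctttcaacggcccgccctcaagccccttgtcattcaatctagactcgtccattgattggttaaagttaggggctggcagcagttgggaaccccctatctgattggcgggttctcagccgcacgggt
The word was found 2 times for Mcm5, 3 times for Mcm6 and 1 time for Mcm7, and these letters are not in the window of Mcm2, of Mcm3 or of the second start site of Mcm7.

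Other replication factors rose along with the Mcm ring. Pole, the catalytic subunit of a replicative DNA polymerase, was at -0.05, -0.08, -0.19, -1.63 and -0.26 in p53f/f HCC and 0.8, 1.11, 1.23, 0.88 and 0.76 in p53LKO HCC. Pole had a log2 fold change of 1.4 ± 0.28 with an adjusted p of 0.00521. Cdt1, which loads the ring onto DNA, was at 0.52 to 2.32 in p53f/f HCC and 2.44 to 3.06 in p53LKO HCC (log2 fold change 1.35 ± 0.30, adjusted p = 0.0079). Both had groups without overlap. Chaf1a, a histone chaperone, was also called (log2 fold change 1.38 ± 0.45, adjusted p = 0.0444), although 3 p53LKO tumors lay below the highest p53f/f tumor, and the call was lost when any 1 of 8 tumors was left out. Mcm10, a replication initiation factor, went the other way, with 2.62, 2.98, 2.4, 1.5 and 1.64 in p53f/f HCC and 0.8, 1.25, 1.77, 1.74 and 0.41 in p53LKO HCC, and lost its call when any 1 of 6 tumors was left out. For Mcm10 the log2 fold change was -1.03 ± 0.34 with an adjusted p of 0.0463.

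Genes of mitosis shifted less clearly. Their median lay 0.52 above that of all genes, close to the replication genes, but of 38 kept genes only Ncaph, a condensin subunit, was called (log2 fold change 1.44 ± 0.40, adjusted p = 0.0235), and not without the tumor of mouse 5283. The mean level of the list was -0.80 to 1.63 in p53f/f HCC and 0.62 to 2.27 in p53LKO HCC, with overlap. Cdca5, which protects sister chromatid cohesion, had levels of 0.34, 0.32, 0.74, -2.42 and -0.33 in p53f/f HCC and 0.42, 1.88, 1.31, 0.86 and 1.4 in p53LKO HCC (log2 fold change 1.44 ± 0.52, adjusted p = 0.0637), and Cdca8, a subunit of the chromosomal passenger complex, 1.06, 0.96, 2.27, -0.85 and 0.61 in p53f/f HCC and 1.09, 2.86, 2, 1.96 and 1.7 in p53LKO HCC. Cdca8 gave a log2 fold change of 1.11 ± 0.49 with an adjusted p of 0.118. In both the first tumor of mouse 3717 was far below the other p53f/f tumors, and the remaining tumors overlapped. Hmmr, a spindle protein, was lower with an adjusted p under 0.05 but under the fold limit (log2 fold change -0.99 ± 0.32, adjusted p = 0.0421).

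Known targets of p53 were lower on average relative to other genes, with few calls. Of 30 kept genes, 4 (13.3%) were lower and 1 higher, and the median was -0.31 relative to that of all genes. At an adjusted p under 0.05 alone, 9 had a negative and 1 a positive value, and 10 had groups without overlap. The mean level over the list was 1.7 to 1.88 in p53f/f HCC and 1.33 to 1.69 in p53LKO HCC, so that every p53LKO tumor lay below every p53f/f tumor, the closest ones by less than 0.1 log2 units. With spike-in scaling 8 were higher and 2 lower and their median was 0.66, which is still -0.31 relative to that of all genes. Phlda3, an inhibitor of AKT signalling, was at 3.29, 3.73, 3.75, 3.19 and 2.91 in p53f/f HCC and 0.89, 0.72, 2.87, 0.31 and 1.48 in p53LKO HCC. For Phlda3 the log2 fold change was -2.12 ± 0.41 with an adjusted p of 0.00417. Dcxr, a carbonyl reductase, was at 2.16 to 2.67 in p53f/f HCC and -0.83 to 1.63 in p53LKO HCC (log2 fold change -2.0 ± 0.38, adjusted p = 0.0036). Both fell without overlap, as did Trp53inp1, a stress protein of the p53 pathway (log2 fold change -1.17 ± 0.31, adjusted p = 0.0193), whose call was lost without either tumor of mouse 3717. Mdm2, the ubiquitin ligase that degrades p53, was lower on all 5 p53LKO arrays (log2 fold change -0.91 ± 0.17, adjusted p = 0.00309) but under the fold limit. Cdkn1a, the inhibitor of cyclin-dependent kinases p21, did not pass, with levels of 0.78, 1.37, 2.13, 1.37 and 1.05 in p53f/f HCC and 1.14, 1, 1.75, 1.01 and 2.48 in p53LKO HCC, and its sign was negative under 3 of the other scalings. Cdkn1a had a log2 fold change of 0.14 ± 0.32 with an adjusted p of 0.786. Tigar, which lowers the flux through glycolysis, was the only higher member (log2 fold change 1.12 ± 0.27, adjusted p = 0.0113), and not without the tumor of mouse 3716.

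Several enzymes that make serine and single-carbon units rose. In the list of the pentose phosphate and serine pathways, 4 of 16 kept genes (25%) were higher and 0 lower, and the median lay 0.34 above that of all genes. The mean level of the list was 2.21 to 2.56 in p53f/f HCC and 2.79 to 3.54 in p53LKO HCC. Serine is made from a glycolytic intermediate in 3 steps, by Phgdh, Psat1 and Psph. Psat1 was at 3.33, -0.82, 0.68, 2.07 and 1.53 in p53f/f HCC and 4.45, 2.76, 3.97, 5.06 and 6.62 in p53LKO HCC, and only the tumor of mouse 5283 lay within the range of p53f/f HCC. Psat1 gave a log2 fold change of 3.21 ± 0.79 with an adjusted p of 0.0134. Psph was at 2.88, 2.52, 2.97, 2.79 and 2.41 in p53f/f HCC and 4.04, 3.41, 3.79, 4.57 and 5.21 in p53LKO HCC, without overlap. For Psph the log2 fold change was 1.49 ± 0.30 with an adjusted p of 0.00499. The brightest probe of Phgdh did not pass (log2 fold change 1.15 ± 0.67, adjusted p = 0.229), and its other kept probes gave 1.05 and 1.21 and did not pass either. Mthfd2, the mitochondrial enzyme that passes on the carbon unit from serine, was at -1.69, -1.19, -1.03, -2.58 and -1.99 in p53f/f HCC and 0.48, -0.03, -0.04, -0.17 and 0.41 in p53LKO HCC, with the groups about 1 log2 unit apart at the closest tumors. Mthfd2 had a log2 fold change of 1.83 ± 0.28 with an adjusted p of 0.00107. Tkt, the transketolase of the pentose phosphate pathway, was called in all tumors together (log2 fold change 1.29 ± 0.41, adjusted p = 0.038) but not when any 1 of 6 of them was left out. Aldh18a1, the first enzyme of proline synthesis, was higher (log2 fold change 2.0 ± 0.51, adjusted p = 0.0151), with overlap between the groups.

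Aminoacyl-tRNA synthetases load amino acids onto tRNAs. Of 20 kept genes, 5 (25%) were higher and 0 lower, and 10 had an adjusted p under 0.05, all of these with a positive value. Gars, for glycine, was at 4.79, 5.1, 4.51, 4.49 and 4.9 in p53f/f HCC and 6.17, 6.02, 6.55, 6.33 and 5.68 in p53LKO HCC (log2 fold change 1.39 ± 0.19, adjusted p = 0.000533), Kars, for lysine, at 2.77 to 3.27 in p53f/f HCC and 3.55 to 4.53 in p53LKO HCC (log2 fold change 1.11 ± 0.20, adjusted p = 0.00306). Nars, for asparagine, was at 2.36 to 2.74 in p53f/f HCC and 3.14 to 4.18 in p53LKO HCC (log2 fold change 1.05 ± 0.19, adjusted p = 0.00272). None of these 3 overlapped between the groups, and Nars lost its call without the tumor of mouse 3975. Vars (log2 fold change 1.01 ± 0.28, adjusted p = 0.0243) and Aars (log2 fold change 1.01 ± 0.28, adjusted p = 0.0226), for valine and alanine, were just over the limit and lost their call when any 1 of 5 tumors was left out. Scaled to the 75th percentile of the kept probes, only Gars of these genes stayed over the fold limit, at 1.14. Kars (0.85), Vars (0.76) and Aars (0.75) were then under it, and so was Nars. Asns, Chac1 and Trib3, members of other lists, did not pass. Asns, asparagine synthetase, was at 3.26, -1.9, -0.77, 3.85 and 3.33 in p53f/f HCC and 2.93, 0.83, 4.18, 3 and 3.15 in p53LKO HCC (log2 fold change 1.27 ± 1.1, adjusted p = 0.42), with both the tumors of mice 3715 and 3716 far below the rest, Chac1, which cleaves glutathione, had an adjusted p of 0.0547 with a value of 0.83, and Trib3, a pseudokinase, was at -0.86 with an adjusted p of 0.251. In the list of the response to stress of the endoplasmic reticulum, 1 of 28 genes was lower, Ern1, a sensor of unfolded proteins (log2 fold change -1.05 ± 0.25, adjusted p = 0.0113), a call lost without the tumor of mouse 3716 or of mouse 3731, and 0 were higher.

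Genes of ribosome assembly had a higher mean level in every p53LKO tumor, with few calls. The closest tumors of both groups differed by less than the median rise of 0.24 over all genes. The median of these genes lay 0.31 above that of all genes. Of 32 kept genes of ribosome biogenesis, 3 were higher (9.38%, against 6.27% of all genes), 13 had an adjusted p under 0.05 with a positive value and none with a negative one, and the mean level was 1.6 to 1.93 in p53f/f HCC and 2.05 to 2.43 in p53LKO HCC. Ncl, nucleolin, was at 3.47, 3.84, 3.54, 3.62 and 3.5 in p53f/f HCC and 5.27, 4.5, 4.44, 5.03 and 4.56 in p53LKO HCC (log2 fold change 1.16 ± 0.19, adjusted p = 0.00134), Nop2, an rRNA methyltransferase, at 1.97 to 2.52 in p53f/f HCC and 2.83 to 3.71 in p53LKO HCC (log2 fold change 1.15 ± 0.18, adjusted p = 0.00138). Tcof1, treacle, which promotes transcription of rRNA, was at -0.11 to 0.35 in p53f/f HCC and 1.02 to 1.58 in p53LKO HCC (log2 fold change 1.13 ± 0.16, adjusted p = 0.000795). The other kept probe of Ncl gave 0.17 and that of Tcof1 0.25, and neither passed. With the 75th percentile of the kept probes none of the list passed both thresholds, and Nop2 lost its call with the row of the slide as a block (0.9992 as log2 fold change). On the probes used here these 3 genes separated the groups in all tumors, and so did Nop58, of the complexes that modify rRNA, just under the fold limit (log2 fold change 0.92 ± 0.19, adjusted p = 0.00638). The 75 kept genes of cytosolic ribosomal proteins held 0 higher and 0 lower genes by limma with the fold limit, 5 with an adjusted p under 0.05 in the positive and 2 in the negative direction, and their median was -0.12 relative to that of all genes.

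Among 27 kept chaperonin and heat shock genes, 2 were higher and 12 had an adjusted p under 0.05 with a positive value. Hsph1, a nucleotide exchange factor of HSP70, had levels of 0.56, 1.35, 1.88, 1.31 and 0.76 in p53f/f HCC and 2.91, 1.33, 3.01, 3.84 and 2.63 in p53LKO HCC, with the tumor of mouse 5283 inside the p53f/f range. Hsph1 gave a log2 fold change of 1.57 ± 0.41 with an adjusted p of 0.0171. Hsp90aa1, the inducible form of HSP90, was called (log2 fold change 1.05 ± 0.33, adjusted p = 0.0364) but lost the call when any 1 of 7 tumors was left out. Of 40 proteasome subunits 13 had a positive value at an adjusted p under 0.05, but only Psmd7, of the regulatory particle, passed the fold limit (log2 fold change 1.12 ± 0.20, adjusted p = 0.00254). Of 53 initiation factors and their regulators only Eif4ebp1, the repressor of cap-dependent translation, did (log2 fold change 1.09 ± 0.21, adjusted p = 0.00377), and not without the tumor of mouse 3715.

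**Figure D2:**
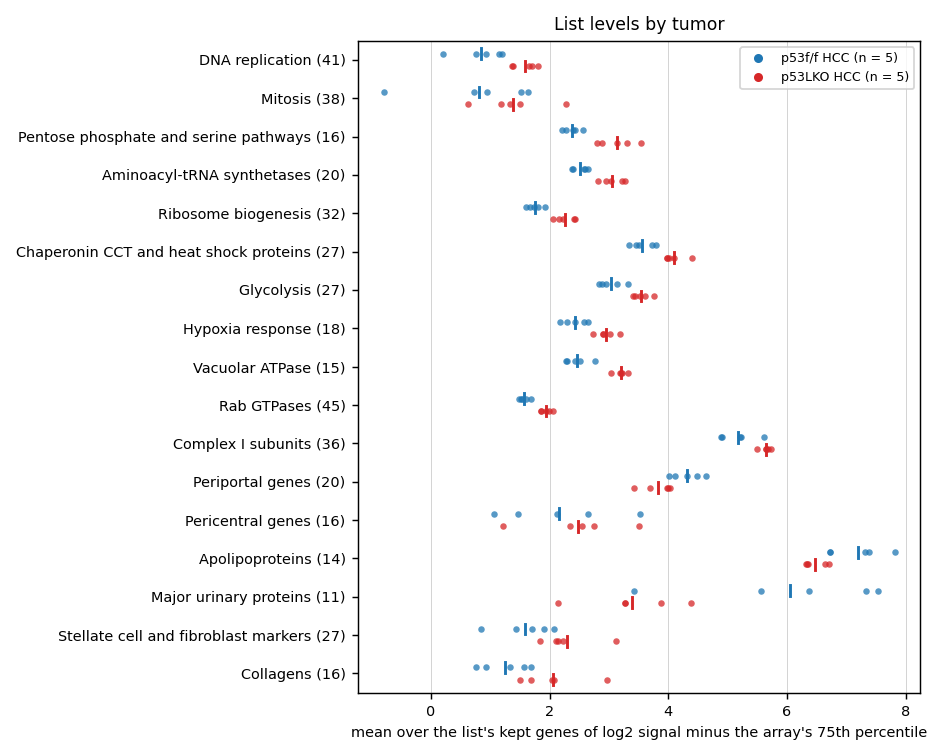
Mean level over the kept genes of 17 lists in each tumor, with the number of kept genes in brackets. The means are not corrected for the median rise of all genes. Points are tumors, 5 per group, and bars are group means. The p53LKO tumors lie to the right of all p53f/f tumors for aminoacyl-tRNA synthetases, at 2.81 to 3.26 against 2.37 to 2.64, and for the vacuolar ATPase, at 3.04 to 3.32 against 2.28 to 2.77, while mitosis overlaps.

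Several genes of glycolysis rose, most of them isoforms known from tissues other than adult liver. Of 27 kept genes, 6 (22.2%) were higher and 0 lower, and the mean level was 2.83 to 3.32 in p53f/f HCC and 3.41 to 3.75 in p53LKO HCC. Pkm, the pyruvate kinase of proliferating and muscle cells, had levels of 2.68, 3.57, 3.93, 3.7 and 3.1 in p53f/f HCC and 4.55, 4.24, 5.46, 4.86 and 5.89 in p53LKO HCC. Pkm had a log2 fold change of 1.61 ± 0.33 with an adjusted p of 0.00575. Slc16a3, a lactate exporter, was at -1.66, -0.98, -1.21, -1.03 and -0.88 in p53f/f HCC and 0.38, 0.25, 2.53, -0.02 and 0.96 in p53LKO HCC. Slc16a3 gave a log2 fold change of 1.97 ± 0.41 with an adjusted p of 0.00615. In both genes every p53LKO tumor was above every p53f/f tumor, and the second kept probe was called too. Aldoa (log2 fold change 1.11 ± 0.23, adjusted p = 0.00646), Pfkm (log2 fold change 1.07 ± 0.22, adjusted p = 0.00548) and Eno1 (log2 fold change 1.2 ± 0.31, adjusted p = 0.0161), which are the aldolase, phosphofructokinase and enolase of most tissues, rose without overlap, but Aldoa lost its call without the tumor of mouse 3681, Pfkm without the second tumor of mouse 3717 and Eno1 with the row of the slide as a block. Hk2, the hexokinase of muscle and many tumors, was barely past the threshold (log2 fold change 1.5 ± 0.51, adjusted p = 0.0498) and lost its call when any 1 of 8 tumors was left out. Eno1 (0.95), Aldoa (0.85) and Pfkm (0.82) were under the fold limit with the 75th percentile of the kept probes, while Slc16a3, Pkm and Hk2 stayed over it.

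Targets of the response to low oxygen included 4 higher genes among 18 (22.2%), of which Aldoa is also in the list of glycolysis. Ndrg1, a stress protein induced by hypoxia, was at 2.64, 4.64, 3.43, 2.8 and 1.85 in p53f/f HCC and 5.61, 5.62, 5.3, 5.45 and 4.76 in p53LKO HCC. For Ndrg1 the log2 fold change was 2.28 ± 0.42 with an adjusted p of 0.0034. P4ha2 (log2 fold change 2.42 ± 0.55, adjusted p = 0.00897) and P4ha1 (log2 fold change 1.04 ± 0.24, adjusted p = 0.00979), subunits of the enzyme that hydroxylates proline in collagen, rose as well, the latter with a call that was lost when any 1 of 4 tumors was left out. The median of the list lay only 0.07 above that of all genes, so that a few members carry the counts.

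Few mitochondrial genes passed both thresholds. In the tricarboxylic acid cycle 3 of 25 genes were higher, Mdh2 (log2 fold change 1.14 ± 0.26, adjusted p = 0.00965), Idh2 (log2 fold change 1.06 ± 0.23, adjusted p = 0.00712) and Idh3a (log2 fold change 1.0 ± 0.28, adjusted p = 0.0238). Mdh2, the malate dehydrogenase of mitochondria, was at 6.12 to 7.66 in p53f/f HCC and 7.8 to 8.18 in p53LKO HCC. Its call was lost without the first tumor of mouse 3717, and those of Idh2 and Idh3a when any 1 of at least 3 tumors was left out. All 3 genes were under the fold limit with the 75th percentile of the kept probes, Mdh2 at 0.88. Of 36 subunits of respiratory complex I none passed the fold limit, but 10 had a positive value at an adjusted p under 0.05, with Ndufs1 the highest (log2 fold change 0.99 ± 0.22, adjusted p = 0.00802). The mean over these subunits was 4.89 to 5.62 in p53f/f HCC and 5.5 to 5.73 in p53LKO HCC, with the tumor of mouse 3715 inside the range of p53LKO HCC. Of 77 mitochondrial ribosomal proteins 17 were positive at an adjusted p under 0.05 and none negative, while only Mrpl34 passed the fold limit (log2 fold change 1.37 ± 0.26, adjusted p = 0.00372). Complexes III to V had 7 positive and 0 negative of 38 kept subunits at that threshold. In these lists the share at an adjusted p under 0.05 is thus close to or below the 25.3% of all genes. Cox7a1, a subunit of cytochrome c oxidase known from muscle, rose (log2 fold change 1.66 ± 0.38, adjusted p = 0.00962). None of the 40 kept genes of fatty acid oxidation passed both thresholds by limma, 3 having an adjusted p under 0.05, and their median was 0.01 relative to that of all genes.

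The vacuolar ATPase pumps protons into lysosomes and other vesicles. Of 15 kept subunits 9 had an adjusted p under 0.05, all with a positive value, and the median lay 0.43 above that of all genes. The mean over the subunits did not overlap, with 2.28 to 2.77 in p53f/f HCC and 3.04 to 3.32 in p53LKO HCC. Past the fold limit were Atp6v0e2, with levels of -4, -1.18, -1.37, -3.61 and -0.46 in p53f/f HCC and 2.32, 2.33, 2.52, -0.39 and 2.01 in p53LKO HCC (log2 fold change 3.88 ± 0.75, adjusted p = 0.00409), and its paralog Atp6v0e, with 4.28, 5.15, 4.98, 4.76 and 4.7 in p53f/f HCC and 5.94, 5.69, 5.93, 5.79 and 6.19 in p53LKO HCC. Atp6v0e had a log2 fold change of 1.14 ± 0.18 with an adjusted p of 0.0013. For Atp6v0e2 the tumor of mouse 3733 lay next to the highest p53f/f tumor, and for Atp6v0e the groups were apart.

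Tubulins and Rab GTPases, which build microtubules and direct vesicles, held some strong changes. Of 14 kept tubulins 2 were higher, and 7 had an adjusted p under 0.05, all with a positive value. Their median lay 0.48 above that of all genes. Tubb2b, a beta tubulin of neurons and fetal tissue, was at -2.66, -1.79, -0.86, -2.1 and -0.15 in p53f/f HCC and -1.18, 1.82, 0.58, 2.68 and 1.27 in p53LKO HCC, with only the tumor of mouse 3976 in the p53f/f range. For Tubb2b the log2 fold change was 2.55 ± 0.67 with an adjusted p of 0.0179, and the call was lost with the slide as a block. The other called tubulin was Tuba8 (log2 fold change 1.39 ± 0.39, adjusted p = 0.0249), not when any 1 of 5 tumors was left out. Of 45 kept Rab genes 6 (13.3%) were higher and 2 (4.44%) lower. At an adjusted p under 0.05 alone, 15 were positive and 2 negative. Their median lay 0.10 above that of all genes, and their mean level was 1.49 to 1.68 in p53f/f HCC and 1.85 to 2.06 in p53LKO HCC. Rab44 (log2 fold change 2.59 ± 0.50, adjusted p = 0.00412), Rab19 (log2 fold change 1.85 ± 0.45, adjusted p = 0.0122) and Rab34 (log2 fold change 1.45 ± 0.29, adjusted p = 0.00483), the last known from cilia, were the highest, Rab19 with a call lost with the row of the slide as a block. Rab3c, a Rab of regulated secretion, was the lowest, with 7.07, 7.14, 7.04, 7.28 and 7.15 in p53f/f HCC and 5.17, 4.67, 4.91, 5.7 and 5.48 in p53LKO HCC, and its other kept probe was called too. Rab3c had a log2 fold change of -1.95 ± 0.19 with an adjusted p of 9.07e-05. Its p53f/f tumors varied by less than 0.3 log2 units.

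**Figure D3:**
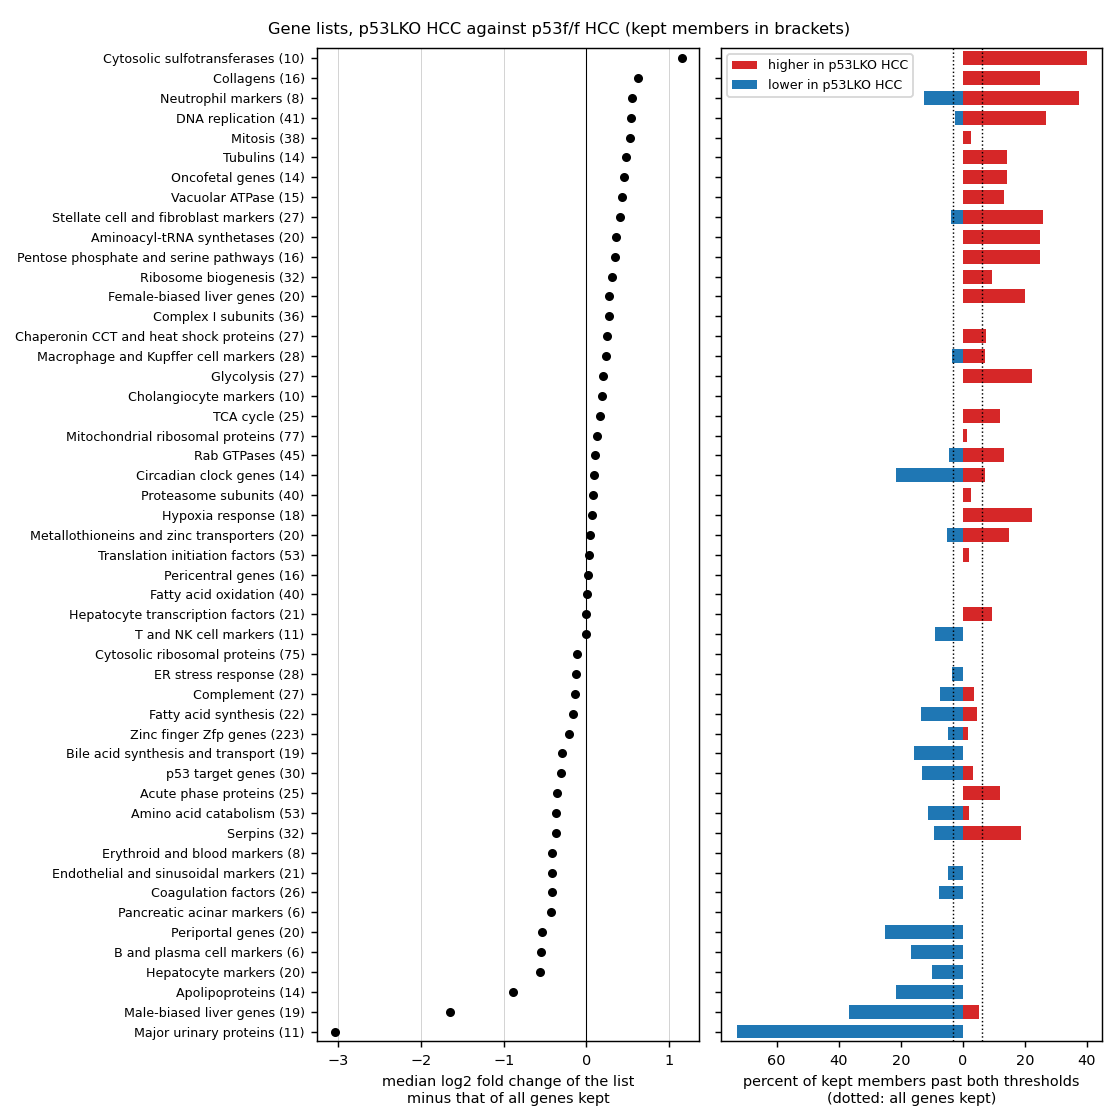
Gene lists ranked by the median log2 fold change of their kept genes minus that of all genes (left) and percent of kept members past both thresholds (right, to the right higher and to the left lower in p53LKO HCC). Dotted lines mark the shares over all genes, 6.27% and 3.09%, and brackets give the number of kept genes. Cytosolic sulfotransferases rank highest at 1.15 and major urinary proteins lowest at -3.04.

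The hepatocyte program changed in selected branches. Among the 20 hepatocyte markers, all of which were kept, 2 were lower and 0 higher, the median was -0.56 relative to that of all genes, and the mean level was 6.67 to 7.27 in p53f/f HCC and 6.47 to 6.8 in p53LKO HCC. Alb, albumin, was at 10.71, 9.93, 10.55, 10.46 and 10.15 in p53f/f HCC and 9.67, 9.41, 9.62, 10.07 and 10.05 in p53LKO HCC (log2 fold change -0.60 ± 0.19, adjusted p = 0.0425) and Ttr, transthyretin, had a log2 fold change of -0.58 with an adjusted p of 0.121. Both values were positive, 0.14 and 0.16, with the arrays scaled to the spike-in probes. Alb and Ttr thus stood far above the 75th percentile on all 10 arrays. Of the 20 markers, 6 had an adjusted p under 0.05 with a negative value and 0 with a positive one. Of 21 kept hepatocyte transcription factors 2 (9.52%) were higher and 0 lower. The higher ones include Cebpb (log2 fold change 1.02 ± 0.18, adjusted p = 0.00222), with a call lost when any 1 of 5 tumors was left out.

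Genes of the periportal and of the pericentral zone of the liver lobule differed in their counts. Of 20 periportal genes 5 (25%) were lower and 0 higher, with a median of -0.54 relative to all genes. Of 16 pericentral genes none was called by limma in either direction, and none had an adjusted p under 0.05. Their mean level was 1.06 to 3.53 in p53f/f HCC and 1.21 to 3.5 in p53LKO HCC, a wider range within each group than for most other lists. Pck1, the enzyme that starts gluconeogenesis, was at 5.65, 4.92, 5.12, 6.59 and 6.49 in p53f/f HCC and 2.28, 4.37, 3.18, 2.57 and 1.23 in p53LKO HCC. Pck1 gave a log2 fold change of -3.03 ± 0.53 with an adjusted p of 0.00235. It fell without overlap. Gls2, the glutaminase of liver, was called (log2 fold change -1.28 ± 0.38, adjusted p = 0.0299) but not when any 1 of 6 tumors was left out. The pericentral gene Glul, glutamine synthetase, was at 2.99, 4.94, 4.2, 0.93 and 3.3 in p53f/f HCC and 4.86, 4.98, 4.79, 4.05 and 4.04 in p53LKO HCC, where the first tumor of mouse 3717 was far below the rest. Glul gave a log2 fold change of 1.27 ± 0.60 with an adjusted p of 0.14.

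Of 4 enzymes that break down histidine, 3 fell. Hal, which removes ammonia from histidine, had levels of 6.14, 4.64, 5, 5.43 and 4.98 in p53f/f HCC and 2.48, 3.23, 3.26, 2.51 and 1.33 in p53LKO HCC. Hal had a log2 fold change of -2.67 ± 0.38 with an adjusted p of 0.00062. The next enzyme, Uroc1, was at 5.08, 4.85, 4.89, 5.09 and 5.1 in p53f/f HCC and 4.54, 4.59, 4.46, 4.39 and 4.17 in p53LKO HCC (log2 fold change -0.57 ± 0.14, adjusted p = 0.0114), a small shift under the fold limit that was positive at 0.16 with spike-in scaling. Amdhd1 followed with 2.77 to 3.95 in p53f/f HCC and 1.44 to 2.66 in p53LKO HCC (log2 fold change -1.4 ± 0.28, adjusted p = 0.00503) and Ftcd, which passes the last carbon unit to folate, with 6.57, 5.95, 5.63, 6.2 and 6 in p53f/f HCC and 4.1, 2.68, 4.84, 4.63 and 3.91 in p53LKO HCC. Ftcd gave a log2 fold change of -2.04 ± 0.36 with an adjusted p of 0.00244. All 4 genes had groups without overlap. Tdo2, the first enzyme of tryptophan breakdown, was at 3.19 to 4.94 in p53f/f HCC and 1.69 to 2.75 in p53LKO HCC (log2 fold change -2.11 ± 0.32, adjusted p = 0.00105). Agxt, which detoxifies glyoxylate, was at 7.37, 3.68, 4.67, 6.67 and 6.36 in p53f/f HCC and 3.31, 4.17, 3.4, -0.32 and 2.2 in p53LKO HCC, with the tumor of mouse 3733 far below all others and a call that was lost without either tumor of mouse 3717. For Agxt the log2 fold change was -3.2 ± 0.87 with an adjusted p of 0.021. Over the 53 kept genes of amino acid breakdown 6 (11.3%) were lower and 1 higher, namely Csad of taurine synthesis (log2 fold change 1.3 ± 0.40, adjusted p = 0.0343), a call lost when any 1 of 7 tumors was left out.

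Apolipoproteins, which carry lipids in blood, had a low median relative to all genes, although the median itself was 0.08 with spike-in scaling. Of 14 kept genes 3 (21.4%) were lower and 0 higher, the median was -0.89 relative to all genes, and the mean levels were 6.72 to 7.82 in p53f/f HCC and 6.31 to 6.7 in p53LKO HCC. Apoa5, which promotes clearance of triglycerides, was at 2.46, 3.04, 2.05, 1.03 and 2.46 in p53f/f HCC and -1.05, 0.59, -0.65, -1.07 and -1.64 in p53LKO HCC. For Apoa5 the log2 fold change was -2.97 ± 0.43 with an adjusted p of 0.000758. Apob, the scaffold of very low density lipoproteins, was at 8.11, 7.23, 7.08, 7.67 and 7.76 in p53f/f HCC and 5.96, 5.89, 6.58, 6.89 and 6.51 in p53LKO HCC, with its other kept probe also negative but not called. Apob had a log2 fold change of -1.2 ± 0.25 with an adjusted p of 0.00579, which was -0.91 and thus under the fold limit with the row of the slide as a block. Apof was lower as well (log2 fold change -1.18 ± 0.27, adjusted p = 0.00968). Coagulation factors had 2 lower of 26 genes, Fga, the alpha chain of fibrinogen (log2 fold change -1.33 ± 0.42, adjusted p = 0.0381), and Kng2, a kininogen (log2 fold change -1.1 ± 0.34, adjusted p = 0.0378), and both calls were lost when any 1 of at least 7 tumors was left out.

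Complement and acute phase genes gave changes in both directions. C8b, of the complex that forms pores in membranes, was at 4.39, 4.42, 3.86, 3.9 and 3.08 in p53f/f HCC and 0.48, 1.62, 2.56, 1.58 and 2.68 in p53LKO HCC, without overlap. C8b gave a log2 fold change of -2.14 ± 0.40 with an adjusted p of 0.00361. C6 (log2 fold change -1.42 ± 0.48, adjusted p = 0.0487) and C9 (log2 fold change 1.1 ± 0.37, adjusted p = 0.0464) of the same complex were lower and higher, and each lost its call when any 1 of 7 tumors was left out. Saa3, a serum amyloid of inflamed tissue, was at 0.09, -2.03, -0.77, -1.35 and -1.23 in p53f/f HCC and 0.27, 0.89, 3.36, 0.66 and 2.06 in p53LKO HCC. Saa3 had a log2 fold change of 2.5 ± 0.56 with an adjusted p of 0.00872. Lbp, which binds bacterial lipopolysaccharide, was at 2.03 to 3.85 in p53f/f HCC and 3.86 to 4.72 in p53LKO HCC (log2 fold change 1.36 ± 0.31, adjusted p = 0.00915). With Lcn2 these were the 3 higher of 25 acute phase genes (12%), while the median was -0.36 relative to that of all genes.

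Serpins, inhibitors of proteases, split by branch. Of 32 kept genes 6 (18.8%) were higher and 3 (9.38%) lower. The lower ones were all from the Serpina3 cluster of secreted antichymotrypsin-like proteins, Serpina3c at 6.36, 6.01, 5.09, 6 and 5.95 in p53f/f HCC and 3.19, 2.9, 4.2, 4.43 and 4.98 in p53LKO HCC (log2 fold change -1.94 ± 0.38, adjusted p = 0.00467), Serpina3i (log2 fold change -1.53 ± 0.40, adjusted p = 0.019) and Serpina3n (log2 fold change -1.38 ± 0.45, adjusted p = 0.0428). Of the higher ones, 5 were from the intracellular Serpinb6 cluster, led by Serpinb6b (log2 fold change 1.86 ± 0.59, adjusted p = 0.0384) and including Serpinb6a (log2 fold change 1.19 ± 0.28, adjusted p = 0.0108), which was not called without the tumor of mouse 3681, and the other was Serpinh1, the chaperone of collagen (log2 fold change 1.27 ± 0.41, adjusted p = 0.0425). Members of each cluster are near-identical copies whose probes may share signal, so the members are not independent. The call of Serpina3i was lost with the row of the slide as a block, and those of Serpina3n, Serpinb6b and Serpinh1 when any 1 of at least 7 tumors was left out.

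Lipid genes changed at selected steps. Elovl2 (log2 fold change -1.83 ± 0.55, adjusted p = 0.0321) and Elovl5 (log2 fold change -1.38 ± 0.39, adjusted p = 0.0246), which elongate polyunsaturated fatty acids, and Lpin1, a phosphatidate phosphatase (log2 fold change -1.41 ± 0.35, adjusted p = 0.0144), were the 3 lower of 22 kept genes of fatty acid synthesis, and Me1, malic enzyme, the only higher one (log2 fold change 1.34 ± 0.43, adjusted p = 0.041). Elovl5 was at 6.65, 4.43, 4.51, 4.74 and 5.82 in p53f/f HCC and 4.15, 3.88, 3.46, 3.88 and 3.89 in p53LKO HCC, without overlap, but lost its call without the second tumor of mouse 3717 or that of mouse 3731, the call of Lpin1 was lost with the row of the slide as a block, and those of Elovl2 and Me1 when any 1 of at least 6 tumors was left out. Abcg5 (log2 fold change -1.45 ± 0.26, adjusted p = 0.00286) and Abcg8 (log2 fold change -1.07 ± 0.23, adjusted p = 0.00655), the partners that form the sterol exporter, fell together with Slc10a1, the carrier that takes bile acids from blood, at 10.38, 9.95, 10.26, 10.36 and 10.04 in p53f/f HCC and 9.05, 8.84, 8.77, 9.43 and 9.35 in p53LKO HCC. Slc10a1 gave a log2 fold change of -1.11 ± 0.17 with an adjusted p of 0.00115. These were the 3 lower of 19 genes of bile acid synthesis and transport (15.8%), with 0 higher, and Abcg8 was not called when any 1 of 3 tumors was left out. With spike-in scaling all 3 were under the fold limit, at -0.71 for Abcg5, -0.33 for Abcg8 and -0.38 for Slc10a1.

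In the metabolism of foreign compounds, sulfotransferases stood apart from the rest. Of 10 kept cytosolic sulfotransferases 4 (40%) were higher and 0 lower, and the median lay 1.15 above that of all genes. Besides Sult2a1, Sult2a2 had levels of -0.91, 2.19, -0.77, 0.66 and 0.92 in p53f/f HCC and 3.63, 4.82, 4.68, 5.9 and 1.93 in p53LKO HCC (log2 fold change 3.78 ± 0.74, adjusted p = 0.00452) and Sult1c2 of 1.54, 2.61, 1.48, -0.11 and 0.15 in p53f/f HCC and 3.18, 2.72, 4.12, 4.41 and 3.02 in p53LKO HCC. For Sult1c2 the log2 fold change was 2.36 ± 0.51 with an adjusted p of 0.00723. Sult2a1 and Sult2a2 are close paralogs, and in both the tumor of mouse 3715 was the highest p53f/f tumor and that of mouse 3975 the lowest p53LKO tumor. Sult2b1, a sulfotransferase for cholesterol, rose too (log2 fold change 1.54 ± 0.28, adjusted p = 0.00286). Of 62 cytochrome P450 genes 3 were lower, Cyp3a57 (log2 fold change -1.51 ± 0.42, adjusted p = 0.0227), Cyp3a25 (log2 fold change -1.42 ± 0.37, adjusted p = 0.0183) and Cyp2c70 (log2 fold change -1.16 ± 0.34, adjusted p = 0.0287), which makes muricholic acids of mouse bile, and 1 was higher, Cyp39a1 (log2 fold change 1.61 ± 0.48, adjusted p = 0.0294). Cyp3a57 lost its call without the tumor of mouse 3733, Cyp3a25 with the slide as a block, and Cyp2c70 and Cyp39a1 when any 1 of at least 5 tumors was left out. Gstp3 (log2 fold change 1.77 ± 0.45, adjusted p = 0.0156) and Mgst3 (log2 fold change 1.28 ± 0.32, adjusted p = 0.0149), a soluble and a microsomal glutathione transferase, were the 2 higher of 22 genes of that family. Among exporters Abcc1, which carries glutathione conjugates, was higher (log2 fold change 1.56 ± 0.45, adjusted p = 0.0274), though not when any 1 of 3 tumors was left out, as were the paralogs Abcb1a (log2 fold change 1.13 ± 0.34, adjusted p = 0.0319) and Abcb1b (log2 fold change 1.33 ± 0.39, adjusted p = 0.029), whose calls were lost when any 1 of 6 tumors was left out.

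Most major urinary proteins, whose genes growth hormone makes male-biased in mouse liver, fell. The 11 kept major urinary proteins, pheromone carriers secreted by the liver into blood and urine, held 8 lower genes (72.7%), and the median was -3.04 relative to that of all genes. Mup20, the male pheromone darcin, was at 9.65, 9.3, 9.33, 8.21 and 9.47 in p53f/f HCC and 8.21, 7.57, 7.35, 6.81 and 5.18 in p53LKO HCC. Mup20 had a log2 fold change of -2.17 ± 0.49 with an adjusted p of 0.0088. Mup3 was at 7.58, 7.22, 6.71, 5.27 and 7.09 in p53f/f HCC and 5.06, 4.36, 4.1, 3.65 and 2.59 in p53LKO HCC. Mup3 gave a log2 fold change of -2.82 ± 0.49 with an adjusted p of 0.00227. Both fell without overlap, although for Mup20 the highest p53LKO tumor equalled the lowest p53f/f tumor to 2 decimals. Mup1 (log2 fold change -3.1 ± 0.68, adjusted p = 0.00779), Mup5 (log2 fold change -3.04 ± 0.60, adjusted p = 0.00471), Mup6 (log2 fold change -3.26 ± 0.68, adjusted p = 0.00592) and Mup21 (log2 fold change -3.0 ± 0.47, adjusted p = 0.00115) gave similar sizes. The first tumor of mouse 3717 was the lowest p53f/f tumor in all 4, and in Mup1, Mup5 and Mup6 it lay below the highest p53LKO tumor. Only 3 of the 11 genes had groups without overlap, and the mean over the list was 3.42 to 7.54 in p53f/f HCC and 2.14 to 4.38 in p53LKO HCC, with overlap. Mup18, by contrast, ranged from -0.64 to 8.21 in p53f/f HCC and 2.17 to 4.21 in p53LKO HCC and was not called (log2 fold change -1.96 ± 1.44, adjusted p = 0.338). These genes are near-identical copies, and their probes may share signal.

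Of 19 kept male-biased genes 7 (36.8%) were lower, 4 of them major urinary proteins, and 1 was higher, and of 20 female-biased genes 4 (20%) were higher and 0 lower, led by Sult2a1 and Sult2a2. The median of the female-biased list, 0.27 relative to all genes, was -0.07 in the upper rows of the slides alone. Egfr, the receptor of epidermal growth factor, was at 3.6, 3, 3.97, 4.78 and 4.43 in p53f/f HCC and 1.94, 2.77, 1.97, 1.7 and 2.05 in p53LKO HCC, and both its other kept probes were called lower. For Egfr the log2 fold change was -1.87 ± 0.32 with an adjusted p of 0.00214. Igf1, the main mediator of growth hormone, was at 3.96, 5.17, 5, 5.05 and 5.14 in p53f/f HCC and 1.5, 2.39, 3.08, 2.35 and 1.17 in p53LKO HCC, and of its 3 other kept probes 2 were called lower. Igf1 had a log2 fold change of -2.77 ± 0.36 with an adjusted p of 0.000365. Bcl6, a repressor of female-biased genes, was the male-biased gene that rose, at 2.42, 1.78, 2.17, 1.28 and 1.57 in p53f/f HCC and 2.94, 3.21, 3.86, 3.36 and 3.33 in p53LKO HCC. For Bcl6 the log2 fold change was 1.49 ± 0.24 with an adjusted p of 0.00133. Cyp4a12a, another male-biased gene, varied widely within both groups, at 1.04, 5.26, 5.14, -2.32 and -0.66 in p53f/f HCC and -2.08, -1.49, 3.43, 0.06 and -2.58 in p53LKO HCC, as did its near-identical copy Cyp4a12b. Cyp4a12a gave a log2 fold change of -2.22 ± 1.56 with an adjusted p of 0.317.

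The labels do not give the sex of the mice, and the study describes the mice of this comparison as male. Transcripts of the Y chromosome were measured on all arrays. Ddx3y was at 1.68, -0.37, -1.17, 1.47 and 1.8 in p53f/f HCC and -1.15, -0.67, 1.32, 0.24 and 0.26 in p53LKO HCC and Eif2s3y at 1.68, 0.33, -1.13, 1.59 and 1.93 in p53f/f HCC and -1.8, -0.99, 1.36, 0.93 and 0.21 in p53LKO HCC. The tumors of mice 3715 and 3716 in p53f/f HCC and of mice 3976 and 5283 in p53LKO HCC were the lowest of their groups in both genes, and neither gene passed (0.448 and 0.342 as adjusted p). Xist, the RNA that silences an X chromosome in female cells, has 2 probes on the array, and only 1 of these was well above background, on the array of mouse 5283 alone. That probe was at -1.18 in this tumor and between -7.26 and -5.39 in the others, and the second probe was at -4.11 and between -7.15 and -5.16. Without the tumor of mouse 5283, 7 male-biased genes were lower and 1 higher, and the median of the list relative to all genes was -1.8. Of the female-biased genes 3 were then higher and 0 lower, with a median of 0.07. The part of these differences among tumors in the sex-biased genes was not tested beyond this.

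**Figure D4:**
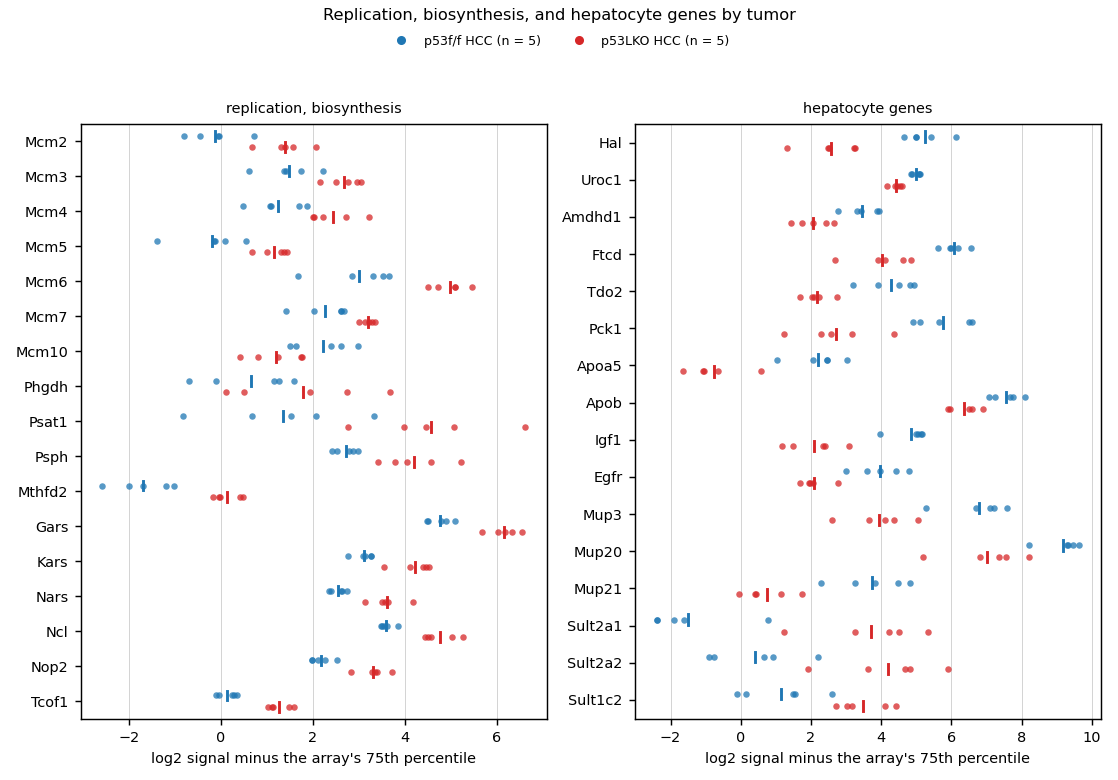
Level in each tumor of genes of DNA replication and biosynthesis (left) and of hepatocyte genes (right), in log2 signal relative to the 75th percentile of the array. Points are tumors, 5 per group, and bars are group means. Mcm2 to Mcm7 lie higher and Mcm10 lower in p53LKO HCC, and Hal, Uroc1, Amdhd1 and Ftcd lie lower without overlap.

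Of 14 kept clock genes 3 (21.4%) were lower and 1 (7.14%) higher. Nr1d1, a repressor in the core clock, was at 1.02, 0.76, -0.24, 0.78 and 0.89 in p53f/f HCC and -2.65, -0.69, -3.59, -4.5 and -2.25 in p53LKO HCC. Nr1d1 had a log2 fold change of -3.38 ± 0.58 with an adjusted p of 0.00207. Dbp, an output factor of the clock, was at 3.81, 4.22, 2.54, 3.79 and 3.57 in p53f/f HCC and -0.1, 2.32, 0.53, 0.32 and -0.44 in p53LKO HCC. Dbp gave a log2 fold change of -3.06 ± 0.48 with an adjusted p of 0.00114. Nr1d2, the paralog of Nr1d1, fell as well (log2 fold change -1.72 ± 0.37, adjusted p = 0.00739), with overlap through the tumor of mouse 5283, which was the highest p53LKO tumor in all 3 genes. Nfil3, which opposes Dbp, was positive under the fold limit (log2 fold change 0.71 ± 0.23, adjusted p = 0.0441), and Arntl, an activator of the core clock, was at 0.64 with an adjusted p of 0.183. Since the time of day at which tumors were taken is not in the labels, time and genotype cannot be told apart for these genes.

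Single genes for trace elements other than iron and for early responses also changed. Metallothioneins bind zinc and copper. Of 20 kept metallothioneins and zinc transporters 3 (15%) were higher and 1 (5%) lower, and the median lay 0.04 above that of all genes. Mt2 was at 2.26, 4.81, 5.39, 3.97 and 5.8 in p53f/f HCC and 6.45, 8.17, 5.46, 7.89 and 7.4 in p53LKO HCC, with the tumor of mouse 3731 inside the p53f/f range. For Mt2 the log2 fold change was 2.63 ± 0.67 with an adjusted p of 0.0164, a call lost with the row of the slide as a block. Mt1 was at 3.89 to 6.59 in p53f/f HCC and 6.97 to 8.67 in p53LKO HCC (log2 fold change 2.33 ± 0.51, adjusted p = 0.00739), without overlap, although its other kept probe gave -0.04. The zinc importers Slc39a6 (log2 fold change 1.33 ± 0.29, adjusted p = 0.00739) and Slc39a8 (log2 fold change -1.14 ± 0.35, adjusted p = 0.0345) went in opposite directions, the latter with a call lost when any 1 of 6 tumors was left out. Dio1, the selenium enzyme that activates thyroid hormone, was at 0.35, 2.22, 2.24, -1.21 and 0.26 in p53f/f HCC and 3.8, 2.83, 2.86, 3.24 and 3.01 in p53LKO HCC (log2 fold change 2.37 ± 0.58, adjusted p = 0.0126) and was the only called gene among 26 selenoproteins and factors of selenium handling, and not with the row of the slide as a block. Over these 26 genes the share of higher ones, 3.85%, was below the 6.27% of all genes. Their median was -0.16 relative to that of all genes.

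Of 22 immediate early genes 5 (22.7%) were higher and 2 (9.09%) lower. Ier3, a survival factor, was at -2.08, -1.31, -0.78, -0.49 and -0.65 in p53f/f HCC and 0.61, 1.78, 1.08, 1.44 and 2.08 in p53LKO HCC. For Ier3 the log2 fold change was 2.46 ± 0.34 with an adjusted p of 0.000552. Jund, an AP-1 subunit, was at 3.63 to 4.29 in p53f/f HCC and 4.65 to 5.86 in p53LKO HCC (log2 fold change 1.47 ± 0.23, adjusted p = 0.00122). Neither overlapped between the groups. Myc, the growth regulator, was also higher (log2 fold change 1.26 ± 0.32, adjusted p = 0.0158), with levels of -1.25 to 0.6 in p53f/f HCC and 0.38 to 1.47 in p53LKO HCC. Zfp36, which destabilises cytokine mRNAs, was lower (log2 fold change -1.57 ± 0.35, adjusted p = 0.00786), and so was the p53 target Btg2 (log2 fold change -1.53 ± 0.51, adjusted p = 0.0485), whose call was lost when any 1 of 7 tumors was left out.

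Markers of the supporting tissue were higher in part. Of 16 kept collagens 4 (25%) were higher, and of 27 kept stellate cell and fibroblast markers 7 (25.9%) were higher and 1 lower. The mean levels were 0.76 to 1.68 in p53f/f HCC and 1.5 to 2.96 in p53LKO HCC for collagens and 0.85 to 2.08 in p53f/f HCC and 1.83 to 3.12 in p53LKO HCC for the other markers, both with overlap. The shift of the collagens relative to all genes, 0.62, was -0.15 with the filter of 3 arrays in at least 1 group, which lets in dimmer members. Col16a1, a collagen of fibril surfaces, was at -0.57, 1.47, 0.71, -0.25 and 1.06 in p53f/f HCC and 2.96, 1.88, 2.76, 1.63 and 2.26 in p53LKO HCC. Col16a1 had a log2 fold change of 1.82 ± 0.40 with an adjusted p of 0.00797. Loxl2, which crosslinks collagen, was at -0.21 to 1.23 in p53f/f HCC and 1.38 to 3.54 in p53LKO HCC (log2 fold change 2.07 ± 0.41, adjusted p = 0.00494). Both had no overlap. Col6a1 (log2 fold change 1.58 ± 0.46, adjusted p = 0.027) and Col4a1 (log2 fold change 1.11 ± 0.31, adjusted p = 0.0232), of microfibrils and basement membranes, were called, while Col1a1, the main collagen of scars, was not (log2 fold change 1.37 ± 0.58, adjusted p = 0.103). The calls of Col6a1 and Col4a1 were lost when any 1 of at least 3 tumors was left out, and in all 3 genes the tumor of mouse 3731 was the highest. Mfap4, a protein of elastic fibers, went the other way, at 2.55, 3.41, 1.99, 3.14 and 3.81 in p53f/f HCC and 0.9, 0.54, 1.68, 0.52 and 1.36 in p53LKO HCC. Mfap4 gave a log2 fold change of -1.98 ± 0.35 with an adjusted p of 0.00238. Itgb3, an integrin of platelets, endothelium and macrophages, was higher (log2 fold change 2.36 ± 0.57, adjusted p = 0.0123), though not with the row of the slide as a block. Whether these genes moved with the amount of supporting tissue or in its cells was not tested.

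Markers of neutrophils and of macrophages went in both directions. For neutrophils 8 of 18 markers on the array were kept, and their mean level was 1.58 to 2.59 in p53f/f HCC and 2.61 to 3.58 in p53LKO HCC. The groups thus did not overlap, by a margin of under 0.1 log2 units, less than the median rise of 0.24 over all genes. Of these markers S100a8 (log2 fold change 1.84 ± 0.52, adjusted p = 0.0252), S100a9 (log2 fold change 2.1 ± 0.47, adjusted p = 0.00896) and Lcn2 (log2 fold change 1.34 ± 0.29, adjusted p = 0.00779) rose without overlap, S100a8 with a call lost without the tumor of mouse 5283 or of mouse 3975, whereas Csf3r, the receptor that neutrophils need for their growth factor, fell, at 8.13, 8.18, 8.21, 8.51 and 8.28 in p53f/f HCC and 6.74, 6.29, 6.47, 7.07 and 6.98 in p53LKO HCC. For Csf3r the log2 fold change was -1.55 ± 0.18 with an adjusted p of 0.000164. In hepatocytes Lcn2 is also an acute phase protein. For macrophages, Cd14 (log2 fold change 1.53 ± 0.35, adjusted p = 0.00954) and Cx3cr1 (log2 fold change 1.72 ± 0.55, adjusted p = 0.0413) were higher and Itgam, at 6.05, 7.25, 6.92, 6.6 and 6.55 in p53f/f HCC and 4.89, 3.94, 4.01, 5.22 and 4.88 in p53LKO HCC (log2 fold change -2.09 ± 0.29, adjusted p = 0.000605), lower, among 28 kept markers with a mean level of 1.59 to 2.92 in p53f/f HCC and 2.27 to 3.34 in p53LKO HCC. The call of Cd14 was lost with the row of the slide as a block and that of Cx3cr1 when any 1 of 6 tumors was left out. The 2 higher (7.14%) and 1 lower (3.57%) of the 28 macrophage markers were close to the shares over all genes, 6.27% and 3.09%.

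For T and natural killer cells, 11 of 26 markers on the array were kept and Zap70 was the only called one. Cd3e, a chain of the T cell receptor, was at 2.87, 2.25, 2.37, 2.27 and 2.55 in p53f/f HCC and 2.44, 2.36, 2.51, 2.43 and 2.2 in p53LKO HCC, and thus did not follow Zap70. Cd3e had a log2 fold change of -0.08 ± 0.15 with an adjusted p of 0.75. Among 6 kept B cell markers, Cd22, an inhibitory receptor, was lower, at 2.6, 2.72, 2.46, 2.97 and 2.84 in p53f/f HCC and 1.27, 0.63, 0.78, 1.39 and 1.1 in p53LKO HCC (log2 fold change -1.68 ± 0.18, adjusted p = 0.000122), while Cd79b, a chain of the B cell receptor, was at 0.27 with an adjusted p of 0.449. The mean level over the T and natural killer cell markers was 0.43 to 1.97 in p53f/f HCC and 0.66 to 1.35 in p53LKO HCC, and over the B cell markers 0.46 to 1.48 in p53f/f HCC and 0.34 to 1.04 in p53LKO HCC. Of 29 kept histocompatibility genes 1 (3.45%) was lower and 0 higher, the lower one being H2-Q4 of class I, whose copies are similar (log2 fold change -2.47 ± 0.25, adjusted p = 0.000102). Of 34 kept interferon genes 1 was higher and 1 lower (2.94% each), Oasl2 (log2 fold change 1.95 ± 0.46, adjusted p = 0.0109) and Gbp6 (log2 fold change -2.92 ± 0.28, adjusted p = 8.02e-05), with a value of 0.52 for the other kept probe of Gbp6.

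Markers of other tissues and of bile duct and red blood cells gave few calls. Of 24 pancreatic acinar markers on the array 6 were kept, none was called by limma in either direction and none had an adjusted p under 0.05, with mean levels of 0.69 to 1.81 in p53f/f HCC and 0.62 to 1.12 in p53LKO HCC. The same held for 10 kept cholangiocyte markers of 21, with 1.89 to 3.25 in p53f/f HCC and 2.74 to 3.33 in p53LKO HCC, and for 8 kept erythroid markers of 16, with 2.53 to 5.03 in p53f/f HCC and 2.58 to 4.07 in p53LKO HCC. Of 21 kept endothelial markers 1 was lower, Stab2, a scavenger receptor of sinusoids (log2 fold change -1.17 ± 0.34, adjusted p = 0.0286), a call lost when any 1 of 5 tumors was left out, and the mean level was 1.8 to 2.76 in p53f/f HCC and 1.26 to 2.78 in p53LKO HCC.

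Genes active in fetal liver or in liver tumors had a higher mean level in every p53LKO tumor. Of 14 kept genes of this list 2 (14.3%) were higher and 0 lower, and the mean over the list was 1.73 to 2.02 in p53f/f HCC and 2.55 to 3.15 in p53LKO HCC. The median lay 0.45 above that of all genes. The difference in the mean rests in large part on Dlk1 (4.16) and H19 (3.8), the latter not called on its brightest probe. The higher ones were Dlk1 and Mdk. Dlk1, a surface protein of hepatoblasts, was at -2.84, 1.14, -2.61, -2.67 and -2.96 in p53f/f HCC and 0.87, -0.03, 4.8, 1.16 and 4.06 in p53LKO HCC, with the tumors of mice 3731 and 3975 far above the rest. Dlk1 gave a log2 fold change of 4.16 ± 1.03 with an adjusted p of 0.0138. The imprinted noncoding RNA H19 did not pass on its brightest probe, at 3.94, 4.82, 4.6, 2.71 and 0.77 in p53f/f HCC and 9.44, 9.44, 1.23, 7.99 and 7.74 in p53LKO HCC (log2 fold change 3.8 ± 1.42, adjusted p = 0.0698), with the tumor of mouse 3731 inside the p53f/f range, and 1 of its 6 other kept probes was called higher (log2 fold change 4.46, adjusted p = 0.04). Mdk, the growth factor midkine, was at 1.4, 0.07, 0.76, 1.28 and 1.35 in p53f/f HCC and 2.53, 2.04, 3.02, 2.51 and 2.03 in p53LKO HCC (log2 fold change 1.45 ± 0.28, adjusted p = 0.00433), without overlap, although its other kept probe gave -0.99. Mirg, a noncoding RNA of the imprinted region that also holds Dlk1, was at 2.47, 3.98, 3.42, 3.57 and 3.78 in p53f/f HCC and 6.42, 5.76, 5.25, 5.85 and 6.37 in p53LKO HCC. Mirg had a log2 fold change of 2.48 ± 0.30 with an adjusted p of 0.000254.

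The share of lower probes was larger among probes of noncoding or unnamed transcripts, a difference that was not tested. Of 14532 kept probes of protein-coding genes 884 (6.08%) were higher and 366 (2.52%) lower, against 38 (1.59%) and 139 (5.83%) of 2386 probes for intergenic noncoding regions, and 67 (2.45%) and 270 (9.89%) of 2731 probes with no RefSeq name, whose kind is not known here. Of 517 probes of other RefSeq genes 13 (2.51%) were higher and 71 (13.7%) lower, and of the 300 long noncoding RNA genes kept 7 were higher and 45 lower. Single tumors often stood at the edge of their group in these falls. Over the 480 lower probes outside protein-coding genes, the tumor of mouse 3733 was the highest p53LKO tumor in 46.5%, that of mouse 5283 the lowest in 45.8% and that of mouse 3716 the lowest p53f/f tumor in 40.8%, against 22.2%, 18.6% and 22.5% of the probes not called. Over the 366 lower probes of protein-coding genes these shares were 47.5%, 32.5% and 37.4%, and their part in the falls was not tested. Neat1, the scaffold of nuclear paraspeckles, was at 5.32, 6.33, 6.44, 6.46 and 6.19 in p53f/f HCC and 2.93, 2.57, 3.31, 2.75 and 4.71 in p53LKO HCC. Neat1 gave a log2 fold change of -2.89 ± 0.38 with an adjusted p of 0.000408. Lncpint was at 1.61, 1.66, 1.25, 1.94 and 2.17 in p53f/f HCC and -0.34, -1.04, -1.12, -1.19 and -1.24 in p53LKO HCC. For Lncpint the log2 fold change was -2.71 ± 0.22 with an adjusted p of 6.69e-05. Both fell without overlap. Nctc1 was among the higher ones (log2 fold change 1.83 ± 0.28, adjusted p = 0.00102).

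Zinc finger genes named Zfp, most of them DNA-binding factors, were the largest family, with 223 kept genes, of which 11 (4.93%) were lower and 4 (1.79%) higher. Zfp691 (log2 fold change -2.25 ± 0.33, adjusted p = 0.000842), Zfp663 (log2 fold change -1.85 ± 0.25, adjusted p = 0.000447) and Zfp53 (log2 fold change -1.7 ± 0.18, adjusted p = 0.000115) were the lowest, and Zfp35 the highest, at 0.72 to 1 in p53f/f HCC and 1.81 to 2.4 in p53LKO HCC (log2 fold change 1.29 ± 0.14, adjusted p = 0.000145). Among 194 kept solute carriers 13 (6.7%) were higher and 7 (3.61%) lower. Slc12a5 (log2 fold change 2.57 ± 0.26, adjusted p = 9.07e-05) rose and Slc17a5 (log2 fold change -2.13 ± 0.30, adjusted p = 0.000649) and Slc8a3 (log2 fold change -2.12 ± 0.33, adjusted p = 0.00116) fell, with a value of -0.15 for the other kept probe of Slc12a5 and of -0.24 for that of Slc17a5. Of the keratins Krt222 (log2 fold change -2.2 ± 0.32, adjusted p = 0.000841) and Krt80 (log2 fold change -1.11 ± 0.16, adjusted p = 0.000842) were lower and none of 15 was higher.

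Most of the other lists held few calls. Histone genes had 2 higher of 29, H2ac23 at 1.45 and H2ac11 at 1.06 as log2 fold changes. Cholesterol synthesis had 1 of 25, its regulator Srebf2 (log2 fold change 1.23, adjusted p = 0.00949), and targets of Nrf2, the factor of the antioxidant response, had 1 of 27, Me1. Among 29 integrins and laminins 5 (17.2%) were higher, among them Lamc3, Itgb3, Lamb3 (1.9) and Itga8 (1.48), and 1 (3.45%) was lower, Itgam. Lamb3 lost its call when any 1 of 6 tumors was left out. Splicing factors (29 kept), cathepsins (12), claudins (8), peroxins (16), carboxylesterases (14), UDP-glucuronosyltransferases (9) and aldo-keto reductases (15) held no gene past both thresholds by limma, with 5, 3, 0, 3, 0, 0 and 1 genes at an adjusted p under 0.05. Over all genes, 9.37% passed both thresholds.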

How the data were processed

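Total RNA of whole tumor tissue with a RIN above 8 was labelled with Cy3 (Low Input Quick Amp Labelling Kit) and hybridised by the authors to Agilent SurePrint G3 8x60K mouse arrays. Per the file headers, Agilent Feature Extraction 10.7.3.1 gave the deposited intensity of each spot, corrected for background on a linear scale. The authors analysed the arrays in GeneSpring, and their deposited table of log2 values was used as an alternative only.

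From the scanner files, log2 of the processed signal was taken minus the 75th percentile of each array over non-control probes, and replicate spots were averaged. Probes well above background on all 10 arrays were fitted with limma 3.58.1 in R 4.3.3 (lmFit and eBayes, 5 against 5 tumors, no covariate), and p-values were adjusted by Benjamini-Hochberg over all 20166 probes. Every adjusted p in the text is from this fit. The number of arrays limits the precision. Because mouse 3717 gave 2 tumors, p-values there measure in part the spread within an animal. Probes were named by accession (28331), symbol (2209) or synonym (174) through RefSeq tables of GRCm38.p6, and 24967 had no RefSeq name. In simulated data with 200 of 20166 probes changed by log2 values of 1.5 to 3 in either direction, 90% were recovered, none in the wrong direction, and 7 unchanged probes were called. The simulated noise was independent between arrays, with equal spread in both groups. It had no effect of slide, row, shared animal or scaling, so these rates do not give the accuracy of the calls here. No column of per-sample values was left unused.

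The genes and the 80 lists were chosen with earlier results of these data known, and the pattern for apolipoproteins was corrected after values were seen. Some genes counted in the lists are not reported here by name. The rule for naming took the 15 largest changes without overlap in each direction, up to 4 kept members of each list in each direction, marker genes and genes that a list is named for. Mcm3, Mcm4, Mcm5, Mcm7, Cdt1, Cdkn1a, Trp53inp1, Mdm2, Phgdh, Aars, Pfkm, Uroc1, Amdhd1, Cyp2c70, Sult2b1, Abcb1a, Abcb1b, Mup20, Mup18, Neat1, Lncpint, Mirg and Nctc1 fall outside it and were chosen after their values were seen. Alternatives covered the filter on dim probes, scaling, background correction, slide and row of the slide, shared animals, single tumors left out, the test and the thresholds. Figures were drawn with matplotlib 3.10.9.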

Additional observations from a re-analysis of the deposited data

Results flagged for a closer look

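In 28 of 448 tests of the 224 genes within a group of 5 tumors (6.25%), the highest or lowest tumor stood apart from the other 4 by a Dixon ratio above 0.71. Chance alone gives about 1 in 20, and the tumor of mouse 3716 was the one apart in 8 of them, always among p53f/f HCC.

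That tumor was the lowest p53f/f tumor for Klra1 (level 2.58), Cd300lf (4.26), Nr1d1 (-0.24), Ddx25 (3.53), Shc4 (5.65), Tdgf1 (3.75) and Gbp6 (2.64), all of which fell in p53LKO HCC, and the highest for Mdm2 (4.21). The tumor of mouse 3715 was the highest p53f/f tumor for Sult2a1 (0.77), Rab34 (4.01) and Dlk1 (1.14) and the lowest for Apof (5.7) and Zfp36 (-0.35). The first tumor of mouse 3717 was the lowest for Pole (-1.63), Mup5 (4.63) and Mup20 (8.21), and the tumor of mouse 3681 for Igf1 (3.96) and Neat1 (5.32).

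Among p53LKO tumors, that of mouse 3733 was the highest for Tssk5 (1.43) and Gbp6 (1.4) and the lowest for Atp6v0e2 (-0.39). The tumor of mouse 3731 was the highest for Sucnr1 (0.69) and Serpinh1 (3.56) and the lowest for Psmd7 (3.13) and H19 (1.23). The tumor of mouse 5283 was the lowest for Lamc3 (-0.65), that of mouse 3975 the lowest for Tmem54 (2) and that of mouse 3976 the highest for Lncpint (-0.34).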

How the results depend on the processing

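The number of probes past the thresholds, 1848, was 7075 with probes well above background on 3 arrays of at least 1 group, 6311 without a filter, 8731 with spike-in scaling, 718 within slide 1, 1 within slide 2 (4473 at an unadjusted p under 0.05), 5038 without a limit on the fold change and 1093 with 1 probe per gene. Leaving out single tumors gave 1540 (without the first tumor of mouse 3717) to 2301 (without that of mouse 3715). Under the other settings tried it was 1309 to 2770. Of the 224 single genes, 187 were called, and 54 (53 of them among the 187) within slide 1, 0 within slide 2, and 119 by the methods' t-test and 118 by a Mann-Whitney test, both with Benjamini-Hochberg adjustment. Of the 187, 154 kept their call with the tumors of mouse 3717 averaged, and 148 and 141 kept it with the slide and the row of the slide as a block. Over the gene lists together, calls numbered 989 with spike-in scaling, 50 within slide 1 and 0 within slide 2. With 1 and 3 tumors, slide 2 has few residual degrees of freedom.

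List medians relative to all genes changed sign for collagens with the filter of 3 arrays (-0.15), female-biased genes with the row of the slide as a block and in the upper rows alone (both -0.0732) and within slide 2 (-0.28), amino acid catabolism (0.0414) and erythroid markers (0.0047) within slide 1, and macrophage markers within slide 2 (-0.23) and without the tumor of mouse 3681 (-0.0005, highest 0.313 when single tumors were left out). Of the single genes, those that changed sign were not past both thresholds. Cdkn1a was -0.12 and -0.0199 with scaling to the 75th percentile and the median of kept probes, -0.0135 with quantile normalization, -0.34 within slide 1, -0.0033 without the tumor of mouse 3681, and between -0.12 (without that of mouse 3975) and 0.33 when single tumors were left out. Spike-in scaling gave 0.16 for Uroc1, 0.14 for Alb, 0.16 for Ttr, 0.0533 for Ddx3y and 0.66 for Cd3e, slide 2 gave 0.97 for both Cyp4a12a and Cyp4a12b, and Cd3e was -0.13 to 0.0268 when single tumors were left out, the highest without that of mouse 3681. Their cause was not tested.

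No paired analysis was possible because the groups share no mouse and replicate numbers only follow the order of the samples. A random effect of the mouse could not be fitted on the 10 arrays and was fitted on all 15 (correlation 0.173, 1772 probes). The filter leaves out probes that fell to background in 1 group, so that falls of dim transcripts have only a bound. The median log2 fold change was -0.44 over the 4435 probes well above background on 9 arrays and 0.27 over the 13212 on none, a split that the change itself can set.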
